A study of Homo sapiens with 14 samples.

Results

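The sites described here are the distal KLF4 peaks that were listed in As3+-treated WT cells and in no other condition. KLF4 ChIP-seq was performed in BEAS-2B, an established human bronchial epithelial cell line, in 4 conditions: WT cells without treatment (WT control), WT cells with 1 µM As3+ for 6 h (WT As3+), Nrf2 KO cells without treatment (Nrf2 KO control) and Nrf2 KO cells with 1 µM As3+ for 6 h (Nrf2 KO As3+). As3+ is inorganic trivalent arsenic, a lung carcinogen that activates Nrf2. The KO cells came from CRISPR-Cas9 editing of exon 2 of the Nrf2 gene, as colonies without Nrf2 protein on Western blots, and the WT cells were colonies from the same procedure that still made Nrf2, so that each genotype rests on selected colonies. There was 1 KLF4 library per condition, so differences between conditions have no replicate to be checked against and no p-values are given.

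A site was chosen by the peak lists themselves. Of 29866 WT As3+ peaks on chromosomes 1 to 22 and X, 8273 had a summit more than 10 kb from every annotated gene TSS in GENCODE release 44, and 790 of these were left out because the summit lay in an exon. Of the 7483 distal peaks that remained, 2351 overlapped a peak of another KLF4 list by at least 1 bp, and the other 5132 are the sites of interest, out of 107268 peaks in the 4 lists together. Thus 68.6% of the distal WT As3+ peaks were in no other list, and the same was true of 43.6% of all WT As3+ peaks. These shares were fixed by the selection and are given as a description. In the text, fold is the authors' enrichment of the library over its local background at the summit, and −log10 p and −log10 q are the authors' significance values for that enrichment.

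KLF4 is a zinc finger transcription factor of epithelia and stem cells that binds CACCC-like and GC-rich DNA, at promoters and at distal regulatory elements. Nrf2 binds antioxidant response elements (ARE) with small MAF proteins after oxidative or electrophilic stress. AP-1, formed by FOS and JUN proteins, and TEAD factors, the DNA-binding partners of YAP and TAZ, occupy many distal enhancers of epithelial cells, and the ARE has an AP-1-like core. The peak lists hold neither expression nor histone marks, so neither the epithelial identity of the cells nor the knockout could be checked with them, and whether a site acts as an enhancer was not tested.

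The genomic sequence around the summits of the strongest sites is shown because the words that a transcription factor could read are what the rule did not use. Each line is the 200 bp centred on the summit in GRCh38, 5′ to 3′, for 4 of the 5 sites with the largest −log10 p and the 3 strongest sites with an AP-1 word. Capitals mark the KLF word (CCACACCC or CCACGCCC), the GC box (CCCCGCCCC) and the AP-1 word (TGACTCA or TGAGTCA), each in either orientation. Sites between genes are named by the nearest protein-coding TSS.
HAAO side, chr2:42964449-42964648, plus strand: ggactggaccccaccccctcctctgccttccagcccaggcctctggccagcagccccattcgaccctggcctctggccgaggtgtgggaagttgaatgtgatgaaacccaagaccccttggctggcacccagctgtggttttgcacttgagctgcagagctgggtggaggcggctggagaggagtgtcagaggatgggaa
BCR, chr22:23225960-23226159, plus strand: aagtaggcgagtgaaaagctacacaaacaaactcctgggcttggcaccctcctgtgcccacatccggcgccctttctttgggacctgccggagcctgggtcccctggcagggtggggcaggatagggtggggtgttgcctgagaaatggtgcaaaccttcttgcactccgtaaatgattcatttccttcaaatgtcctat
UACA side, first site, chr15:70476061-70476260, plus strand: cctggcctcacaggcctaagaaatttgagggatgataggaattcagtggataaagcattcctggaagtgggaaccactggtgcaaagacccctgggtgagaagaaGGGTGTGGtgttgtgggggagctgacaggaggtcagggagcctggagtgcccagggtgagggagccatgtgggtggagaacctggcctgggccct
SOGA1, chr20:36822212-36822411, plus strand: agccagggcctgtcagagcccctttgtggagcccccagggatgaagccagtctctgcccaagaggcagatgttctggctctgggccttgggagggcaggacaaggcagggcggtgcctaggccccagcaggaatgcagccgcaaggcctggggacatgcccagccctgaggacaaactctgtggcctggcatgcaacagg
UACA side, second site, chr15:70492884-70493083, plus strand: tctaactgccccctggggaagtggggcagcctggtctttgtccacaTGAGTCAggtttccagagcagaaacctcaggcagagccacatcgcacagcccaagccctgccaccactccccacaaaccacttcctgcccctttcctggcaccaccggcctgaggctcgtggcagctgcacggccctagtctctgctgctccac
SYNJ2, chr6:158031447-158031646, plus strand: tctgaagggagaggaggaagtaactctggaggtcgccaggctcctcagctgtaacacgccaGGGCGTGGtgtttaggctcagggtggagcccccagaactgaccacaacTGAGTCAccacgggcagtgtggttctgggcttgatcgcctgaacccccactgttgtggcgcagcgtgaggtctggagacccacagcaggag
EDIL3 side, chr5:84696793-84696992, plus strand: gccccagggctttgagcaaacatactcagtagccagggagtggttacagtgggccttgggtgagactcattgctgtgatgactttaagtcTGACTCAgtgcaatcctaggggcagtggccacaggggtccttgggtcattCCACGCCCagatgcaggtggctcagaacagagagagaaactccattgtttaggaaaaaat

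At the first UACA site the centre of the KLF word lay 9 bp from the summit. The SYNJ2 and EDIL3 windows held a KLF and an AP-1 word together, with the AP-1 word 12 bp and 7 bp from the summit. No KLF, GC box or AP-1 word was present in the HAAO, BCR and SOGA1 windows, which says only that these letters are absent from those 200 bp.

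The strongest site lay between genes on chromosome 2, at chr2:42964165-42964785, with a fold of 13, a −log10 p of 34.7 and 37 fragments over the summit. The nearest TSS was that of the long non-coding RNA LINC01819 at 76113 bp, and the nearest protein-coding TSS was that of HAAO, an enzyme of the kynurenine pathway, at 171956 bp. This site ranked 150 by −log10 p among all WT As3+ peaks, so the highest peaks of the list lay outside the set. The second site was in intron 1 of SIAH1, an E3 ubiquitin ligase, with a fold of 10.6 and 32 fragments. The third was in intron 1 of BCR, a gene known from its leukaemia fusion with ABL1, at chr22:23225710-23226402, with a fold of 10.6 and 30 fragments.

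A pair of strong sites lay in the same intergenic stretch of chromosome 15, 287397 bp and 270574 bp from the TSS of UACA. They were chr15:70475981-70476348, with a fold of 11 and 27 fragments, and chr15:70492528-70493249, with a fold of 9.15 and 30 fragments. The nearest TSS to both was LINC02205, at 29767 bp and 12944 bp. Within protein-coding genes, intron 3 of SOGA1 held a site with a fold of 10.5 (chr20:36822005-36822484). Intron 1 of NDST1, which makes the sulfated chains of heparan sulfate, held one with a fold of 8.75 and 33 fragments (chr5:150517797-150518150). Sites with a fold of 8.75 and 9.30 were found in intron 1 of CHD9, a chromatin remodeller, and in intron 3 of SYNJ2, a phosphoinositide phosphatase. Another site lay 15197 bp from the TSS of the stress gene GADD45B (chr19:2490985-2491924, fold 10.2), and one in intron 2 of LINC02580 lay 47676 bp from ZFP36L2, an RNA-binding protein that promotes mRNA decay (fold 9.66). A site in FBXO16 on chromosome 8 had a fold of 10.5. Among the 12 strongest sites, 3 windows had a KLF word and 2 an AP-1 word.

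The strongest sites with an AP-1 word, after the second UACA site and SYNJ2, included chr5:84696523-84697034. It lay 312013 bp from the nearest protein-coding TSS, that of EDIL3, a secreted integrin ligand, and had a fold of 7.84 and 31 fragments. Others were in intron 1 of NIBAN2 (fold 7.85) and in intron 3 of MGLL, the lipase of monoacylglycerols (fold 8.16). The last, inside a protein-coding gene known only as ENSG00000285245, was 13884 bp from the TSS of RALGDS, an activator of Ral GTPases (fold 8.31). The strongest sites with a KLF word, after SIAH1, the first UACA site and SYNJ2, lay in intron 2 of the forkhead factor gene FOXK1 (fold 9.88), 10263 bp from CYTH3, an exchange factor for ARF GTPases (fold 10.9), and in intron 1 of PARVA, a focal adhesion protein (fold 8.76). The CYTH3 site was 86 bp from a WT control peak and so was near a listed site in untreated cells without overlapping it.

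Before the further results, the 4 libraries need to be set apart. The lists held 751 peaks in WT control, 29866 in WT As3+, 76521 in Nrf2 KO control and 130 in Nrf2 KO As3+, on chromosomes 1 to 22 and X. The rule therefore rested almost wholly on the Nrf2 KO control list. Of the distal WT As3+ peaks, 2214 overlapped a Nrf2 KO control peak, 255 a WT control peak and 24 a Nrf2 KO As3+ peak. Without the WT control list the set would have 5265 sites, without the Nrf2 KO As3+ list the same 5132, and without the Nrf2 KO control list 7222.

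Absence from a list is not absence of binding. The fold and p of a peak together give the number of fragments over its summit and the local background, and the lowest background was 1.90 fragments in WT control, 0.757 in WT As3+, 0.491 in Nrf2 KO control and 1.64 in Nrf2 KO As3+. The lists do not give read totals, and the lowest background was used as the measure of depth. It is the lowest over listed peaks only. In the short WT control and Nrf2 KO As3+ lists it may lie above the lowest background of the whole library, and the values scaled to these libraries may then be too high. Fragments and background of each site were scaled together to the depth of each other library, which keeps their ratio but not the listed fold. At the depth of the Nrf2 KO control library, the sites would have a median of 5.19 fragments, where the fewest over any listed summit was 4. There 98.6% of the sites would reach the lowest listed −log10 p, 2.87, as would 99.1% of the 2214 distal peaks shared with Nrf2 KO control. All of these had already passed the cutoff of the WT As3+ list. A share near 100% was therefore close to given, and it does not set the sites apart from the shared peaks. In the WT control and Nrf2 KO As3+ libraries the median of the sites would be 20.1 and 17.3 fragments. All 5132 sites would reach the lowest listed −log10 p, and so would all of the shared peaks. These lists were nonetheless the shortest, with 751 and 130 peaks, although their lowest backgrounds were the highest of the 4. The files hold nothing to check these libraries with, and absence of a site from their lists cannot be told apart from a peak that was not called there. These figures take no account of counting error, which is large at 5 fragments. At the 2214 shared distal peaks, chosen for being in both lists, the median was 11 fragments in WT As3+ and 9 in Nrf2 KO control.

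Many sites were close to a Nrf2 KO control peak without overlapping one. The gap was at most 100 bp for 174 sites (3.39%), at most 500 bp for 629 (12.3%) and at most 1 kb for 1008 (19.6%), with a median of 8182 bp. By contrast, 19 sites lay within 1 kb of a WT control peak and 1 within 1 kb of a Nrf2 KO As3+ peak, as these lists were short. The site with the smallest gap, nearest to DOK7 on chromosome 4, touched a Nrf2 KO control peak with 0 bp between them and had a fold of 4.52, and the next had a gap of 1 bp and a fold of 5.60. Just outside the rule, a peak nearest to LHX5 on chromosome 12 shared 1 bp with a Nrf2 KO control peak and had a fold of 4.24, and another shared 2 bp and had a fold of 3.98. At the distance threshold, the sites just inside were 10001 bp and 10012 bp from a TSS, with folds of 4.55 and 3.74, and the peaks just outside were both 9995 bp from one, with folds of 5.71 and 4.59.

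Most of the sites were weak peaks. The median fold was 4.52 (range 2.53 to 13), the median −log10 p 5.86 and the median −log10 q 2.94. The median width was 224 bp, and the lower quartile was 200 bp, the shortest width in the list. A median of 8 fragments lay over the summit (range 5 to 37), over a median background of 0.963. For 58.4% of the sites the count was 8 or fewer, and 58 sites had over 20. Distal WT As3+ peaks that were also in the Nrf2 KO control list had a median fold of 4.85, a width of 328 bp and 11 fragments. Other unshared sets were close to the sites in fold. Distal Nrf2 KO control peaks absent from WT As3+ had a median fold of 4.56 and a width of 232 bp. Peaks within 2 kb of a TSS found only in WT As3+ had a median fold of 4.53 and a width of 252 bp. Weak peaks were the more often unshared: 81.6% (95% Clopper-Pearson interval 78.8% to 84.1%) of the distal peaks with −log10 q under 2 were in no other list, 75.6% (74.4% to 76.8%) from 2 to 5, and 36.7% (34.3% to 39.2%) at 5 or more. Within 2 kb of a TSS the corresponding shares were 41.5%, 33.1% and 12.2%, so a distal peak was more often unshared than a promoter peak in each band of strength. These and all later intervals cover counting error only and not the spread between libraries, and since the lists that gave the strength also chose the sites, no test was made.

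**Figure D1:**
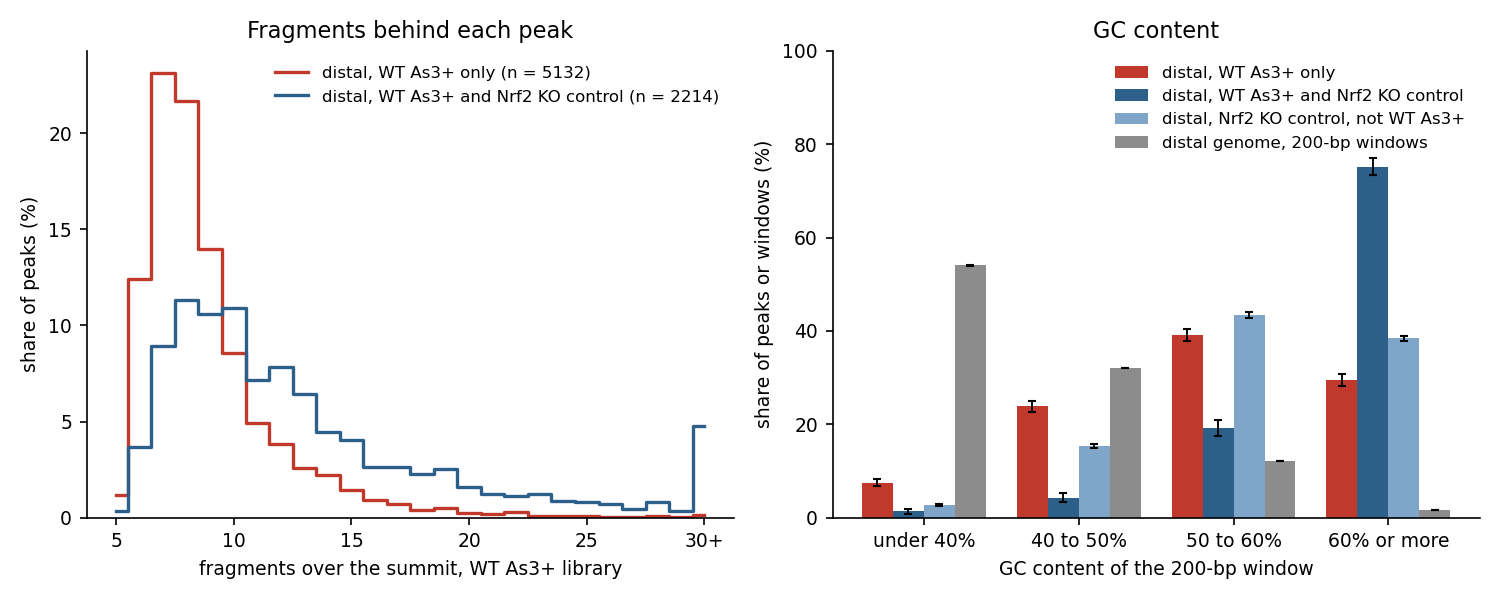
Left, share of peaks (y axis, %) by the number of fragments over the summit in the WT As3+ library (x axis, 30 or more pooled), for the 5132 distal sites found only in WT As3+ (red) and the 2214 distal peaks shared with Nrf2 KO control (blue). Right, share of peaks or windows (y axis, %) in each band of GC content for these sets, for the distal Nrf2 KO control peaks absent from WT As3+ and for all 200-bp windows of the distal genome, with 95% Clopper-Pearson intervals as error bars; the red sites sit at low fragment numbers and 39.2% of them fall at 50 to 60% GC.

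The sites had a GC content between that of the genome and that of the shared peaks. In the 200 bp around the summit the median GC content was 54.5%, with a median of 4 CpG dinucleotides. It was 64% with 7 CpG at the shared distal peaks, 63.0% with 11 CpG at the 3763 promoter peaks (within 2 kb of a TSS) found only in WT As3+, and 39.0% with 1 CpG in the 10053774 consecutive 200-bp windows of the distal genome outside exons. The 24067 distal Nrf2 KO control peaks absent from WT As3+ had a median of 57.5%. A GC content of 60% or more was found in 29.5% of the sites (28.2% to 30.8%), against 75.2% (73.3% to 77.0%) of the shared distal peaks and 1.62% of the genome windows. The plot of fragments and GC content shows both differences. Read the other way, 91.2% of the distal WT As3+ peaks with under 40% GC were in no other list, against 89.9% at 40 to 50%, 80.1% at 50 to 60% and 47.4% (45.7% to 49.1%) at 60% or more. Across strength the GC content of the sites rose from a median of 53.0% with −log10 q under 2 to 59.2% at 5 or more. Differences in GC bias between the libraries were not tested.

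The KLF word was the most frequent of the words of named factors searched. It was in the window of 561 sites, or 10.9% (10.1% to 11.8%), against 11.2% (9.96% to 12.6%) of the shared distal peaks and 10.3% (9.98% to 10.7%) of all WT As3+ peaks, with intervals that overlap, and it was in 2.30% of the distal genome windows. In windows of 50 to 60% GC, where it was most common, 15.5% of the sites had it (13.9% to 17.1%) against 9.62% of the genome windows, and at 40 to 50% GC 9.22% (7.66% to 11%) against 2.56%. At 60% GC or more the values were 8.79% (7.41% to 10.3%) and 7.05%, so that the difference was small there. The GC box, a word of SP and KLF factors, was in 1.73% of the sites (1.39% to 2.13%), in 6.19% (5.22% to 7.27%) of the shared distal peaks and in 0.154% of the genome windows. At like GC content the sites and the genome windows were nearer in proportion. The GC box was in 1.14% and 0.438% at 50 to 60% GC, and in 4.10% (3.16% to 5.22%) and 2.59% at 60% or more. The distal Nrf2 KO control peaks absent from WT As3+ had it in 1.63% (1.48% to 1.80%), close to the sites. The CG run CGCGCG, found in CpG islands, was in 1.71% of the sites, 7.32% of the shared distal peaks and 2.22% of these Nrf2 KO control peaks. The KLF and GC box words share letters, and a base can belong to both.

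The AP-1 word was in 320 sites, or 6.24% (5.59% to 6.93%), against 7.54% (6.48% to 8.72%) of the shared distal peaks, 4.33% of all WT As3+ peaks and 2.95% of the genome windows. Promoter peaks found only in WT As3+ had it in 3.08% (2.55% to 3.69%). The distal Nrf2 KO control peaks absent from WT As3+ were at 2.59% (2.39% to 2.80%), below the genome windows. The interval of the sites lay above that of these Nrf2 KO control peaks at 40 to 50% GC (6.94% against 2.96%), at 50 to 60% (7.01% against 2.70%) and at 60% or more (5.09% against 2.27%). At under 40% GC the values were 4.43% (2.60% to 6.99%) and 3.16% (1.97% to 4.79%), with intervals that overlap. The shared distal peaks had the AP-1 word more often than the sites at 40 to 50% GC, at 10.5% (5.16% to 18.5%). The same held at 50 to 60%, with 9.43% (6.83% to 12.6%), and at 60% or more, with 7.03% (5.85% to 8.36%). These intervals overlap those of the sites. Under 40% GC it was in 0 of 30 shared distal peaks. By strength, at −log10 q of 5 or more the word was in 13% of the sites (10.3% to 16.1%) and 2.38% of these Nrf2 KO control peaks (1.83% to 3.05%). From 2 to 5 the values were 5.59% (4.89% to 6.37%) and 2.62% (2.40% to 2.85%). Under 2 they were 4.55% (3.15% to 6.33%) and 2.58% (1.99% to 3.28%), with intervals that overlap. A band of −log10 q does not hold peaks of like signal in both libraries. At 5 or more the median was 14 fragments at the sites and 9 at these Nrf2 KO control peaks. Both sets were defined by absence from a list, and no test of this difference across libraries was possible with 1 library per condition.

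**Figure D2:**
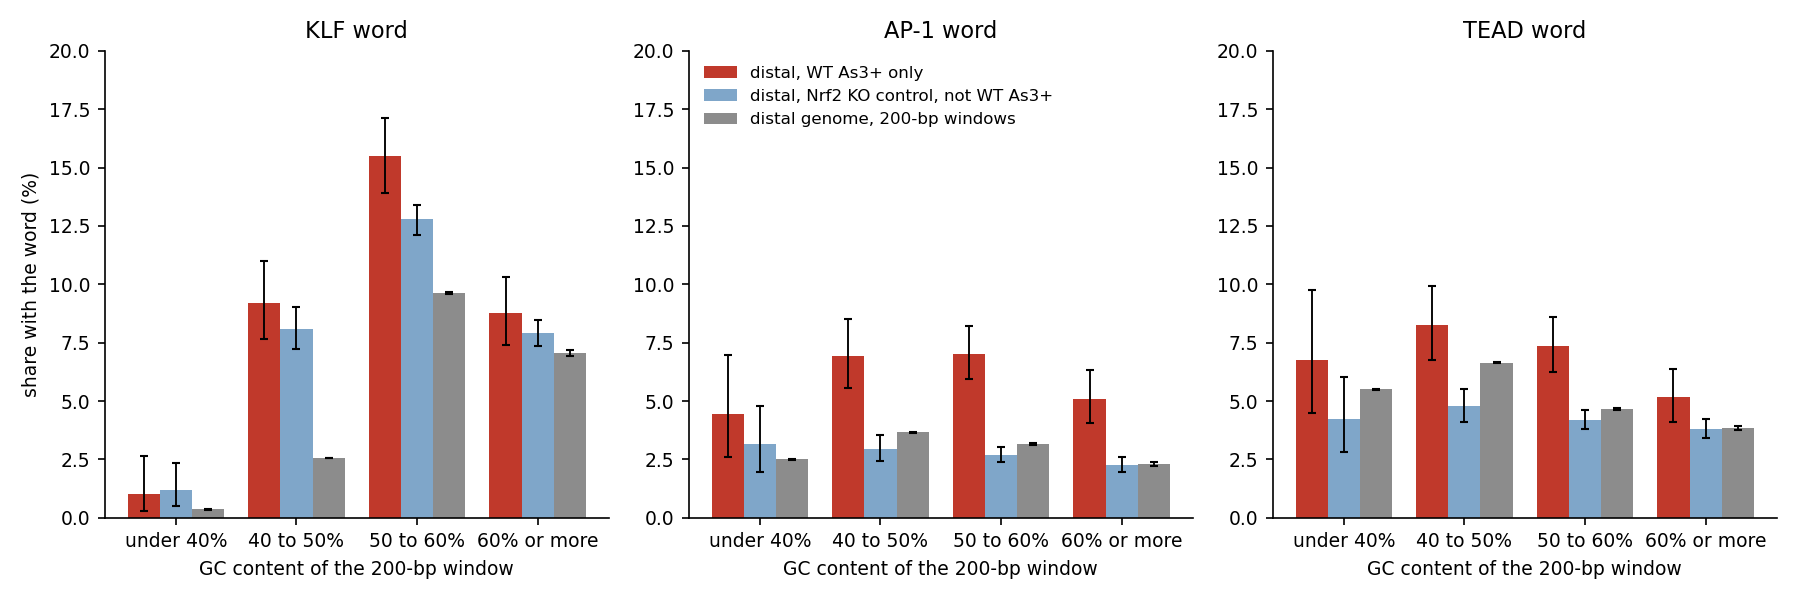
Share of windows (y axis, %) with the KLF word (left), AP-1 word (middle) and TEAD word (right) by GC content of the 200-bp window (x axis), for the distal sites found only in WT As3+ (red), distal Nrf2 KO control peaks absent from WT As3+ (light blue) and all windows of the distal genome (grey), with 95% Clopper-Pearson intervals. In the AP-1 panel the red bars are above the grey ones in every GC band, and the light blue bars stay near the grey ones.

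The TEAD word (GGAATGT or GGAATGC) was in 6.88% of the sites (6.20% to 7.61%), 7.99% of the shared distal peaks, 4.13% (3.89% to 4.39%) of the distal Nrf2 KO control peaks absent from WT As3+ and 5.74% of the genome windows. At 40 to 50% GC it was in 8.24% (6.77% to 9.93%) of the sites and 22.1% (14.2% to 31.8%) of the shared distal peaks. At 50 to 60% these shares were 7.36% and 11.8%, and at 60% or more 5.16% and 6.19%. The RUNX word (TGTGGTT or TGCGGTT) was in 4.42% of the sites (3.88% to 5.02%), 2.87% of the same Nrf2 KO control peaks (2.66% to 3.09%) and 4.17% of the genome windows. The RUNX values of the sites and these peaks were 7.03% and 3.01% under 40% GC, and 5.63% and 2.56% at 40 to 50%. They were 4.73% and 2.98% at 50 to 60%. At 60% or more the order turned, with 2.38% (1.67% to 3.28%) and 2.86% (2.53% to 3.22%), and the intervals overlap. The ARE word, the Nrf2 consensus with free letters in the middle, was in 2.73% of the sites (2.30% to 3.21%), 2.39% of the shared distal peaks, 2.83% of the Nrf2 KO control peaks and 2.23% of the genome windows. The intervals of the 3 peak sets overlap, but the order of the sets changed with GC content and strength. At 50 to 60% GC the word was in 2.84% of the sites and 2.85% of the genome windows, and at 40 to 50% GC in 3.18% of the sites (2.27% to 4.33%), 5.28% of the Nrf2 KO control peaks (4.58% to 6.05%) and 2.90% of the genome windows. At −log10 q of 5 or more it was in 26 of 546 sites, or 4.76% (3.13% to 6.90%), 3.31% (2.21% to 4.75%) of the shared distal peaks and 1.99% (1.49% to 2.61%) of the Nrf2 KO control peaks. There the sites were above the Nrf2 KO control peaks, in bands that do not match in fragments between the libraries. Of the 140 sites with an ARE word, 21 also had an AP-1 word. The E-box CACGTG was in 3.98% of the sites and 1.70% of the genome windows, and the FOX word (TGTTTAC or TGTTTGC) in 4.29% and 6.99%. These differences were smaller at like GC content. At 50 to 60% GC the E-box was in 3.73% (2.95% to 4.66%) and 3.36%, and the FOX word in 4.08% (3.26% to 5.04%) and 3.90%. At 40 to 50% GC the E-box was in 3.10% (2.20% to 4.23%) and 2.25%, and the FOX word in 5.63% (4.41% to 7.07%) and 6.36%. The remaining words, for CRE, ETS, CTCF, NF-kB and HSE, were each in 1.6% of the sites or fewer. Neither a KLF nor an AP-1 word was found in 83.7% of the sites (82.6% to 84.7%), and 42 sites had both.

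Both the KLF and the AP-1 word were more frequent around the summit than in the flanks. Per bin of 50 bp, a KLF word was centred in the bin in 3.27% of the sites within 50 bp of the summit and in 1.29% at 500 to 1000 bp. The ratio was 2.53, and at the shared distal peaks it was 2.30. For the AP-1 word the shares were 1.68% and 0.870%, a ratio of 1.93, against 2.23 at the shared distal peaks. AP-1 had no maximum at the summit itself: its bins within 200 bp of the summit held 1.34% to 1.95%, the highest at 50 to 100 bp, and at the shared distal peaks the highest bin, 2.26%, lay 50 to 100 bp to the other side. The GC box gave 2.11, TEAD 1.26 and RUNX 1.28. The ARE word gave 0.937, without a rise at the summit. GC content also changes with distance from the summit, and its part in these ratios was not tested.

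**Figure D3:**
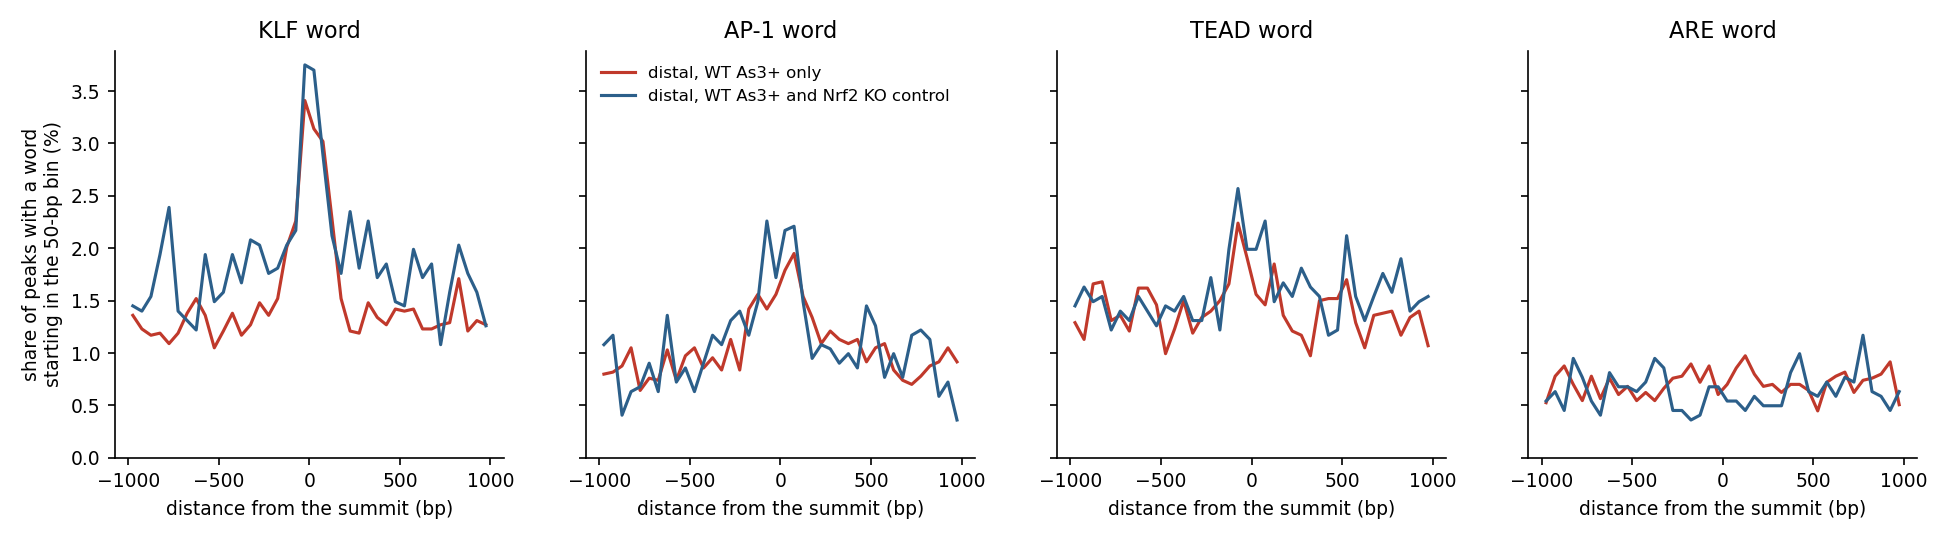
Share of peaks (y axis, %) with a word whose centre lies in each 50-bp bin (the axis label says starting), by distance from the summit (x axis, bp), for the KLF, AP-1, TEAD and ARE words, in the distal sites found only in WT As3+ (red) and the distal peaks shared with Nrf2 KO control (blue). The KLF lines peak at the summit in both sets, the AP-1 lines are raised over a broader stretch around it, and the ARE lines have no rise in the bins next to the summit.

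These words were most frequent in the strongest sites. When the sites were ordered by −log10 p and split into 10 groups of 513 or 514, the KLF word was in 18.9% (15.6% to 22.6%) of the strongest group and 7.78% (5.62% to 10.4%) of the weakest. The AP-1 word was in 13.6% (10.8% to 16.9%) and 4.67% (3.01% to 6.87%), the TEAD word in 11.1% (8.52% to 14.2%) and 5.64% (3.81% to 8.0%), and the RUNX word in 7.80% (5.63% to 10.5%) and 5.64% (3.81% to 8.0%). For AP-1 the second group was at 7.80% and the other 8 between 3.90% and 6.81%, so the rise was mainly in the strongest group. The ARE word was in 4.68% (3.02% to 6.88%) of the strongest group, 2.72% (1.5% to 4.53%) of the weakest and 1.56% to 3.51% of the others, with an interval in the strongest group above the 2.23% of the genome windows. At −log10 q of 5 or more, the KLF word was in 18.5% of the 546 sites and 16.4% of the 846 shared distal peaks, and the AP-1 word in 13% and 11.5%, with intervals that overlap. In the 755 promoter peaks of this strength found only in WT As3+, the KLF word was in 8.48% (6.59% to 10.7%) and the AP-1 word in 4.11% (2.81% to 5.78%).

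**Figure D4:**
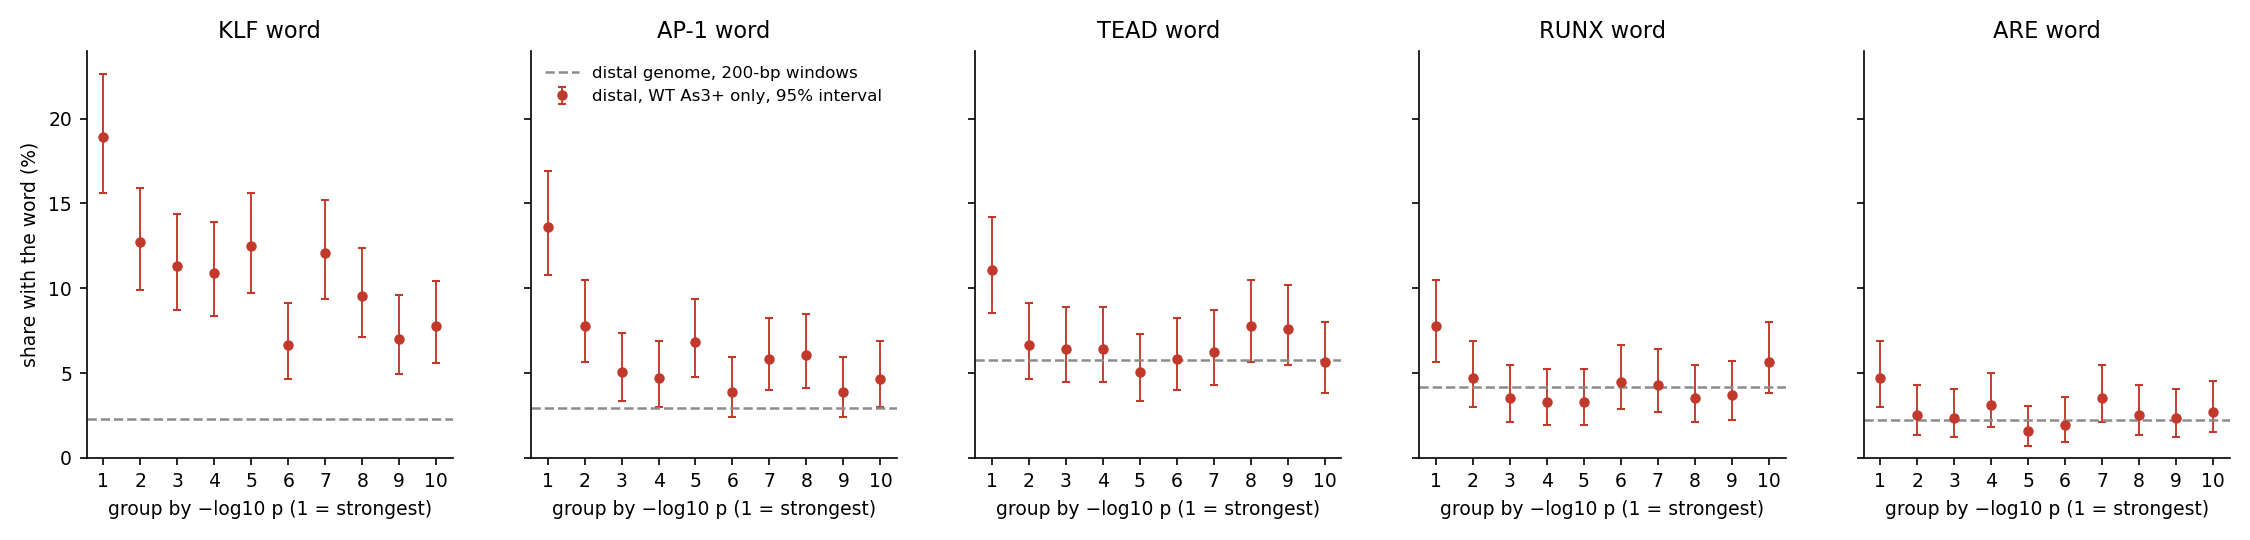
Share of the distal sites found only in WT As3+ (y axis, %) with the KLF, AP-1, TEAD, RUNX or ARE word, in 10 groups by −log10 p (x axis, 1 is the strongest, 513 or 514 sites each), with 95% Clopper-Pearson intervals and, as a dashed line, the share of distal genome windows. The strongest group has the highest share for each of the 5 words, with 18.9% for KLF, 13.6% for AP-1 and 4.68% for ARE.

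The median distance to a gene TSS was 24830 bp, with a range from 10001 to 544648 bp. Of the sites, 38.4% (37.0% to 39.7%) lay 10 to 20 kb from a TSS and 21.9% (20.8% to 23.1%) over 50 kb, against 47.7% and 13.4% (12% to 14.9%) of the shared distal peaks. An intron held 60.7% of the sites (59.4% to 62.1%), against 57.4% of the distal genome windows that lie inside a gene, and 39.3% were between genes. The nearest TSS was that of a protein-coding gene for 35.1% of the sites and of a long non-coding RNA gene for 35.4%. Within 1 Mb of a chromosome end were 3.14% of the sites (2.68% to 3.65%), 5.83% of the shared distal peaks (4.89% to 6.88%) and 0.870% of the genome windows.

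The sites were on average 2.55 per Mb of distal genome, and the number varied between chromosomes. It was 9.42 on chromosome 22, 6.51 on chromosome 19, 5.13 on chromosome 21 and 4.78 on chromosome 17, and it was lowest on chromosome 4 at 1.22 and on the X at 0.389. The pattern was not particular to the sites. Distal peaks shared with Nrf2 KO control were at 4.87, 4.79, 2.23 and 3.33 per Mb on chromosomes 22, 19, 21 and 17. They were at 0.359 on chromosome 4 and 0.277 on the X. Across the 23 chromosomes the number of sites per Mb went with the mean GC content of their distal genome (Spearman's rho 0.631, Pearson's r 0.818), as a description, because all points come from 1 library. Chromosome 21 lay apart, with a GC content of 39.7%, the same as chromosomes 7, 12 and 14, which had 1.88 to 2.26 sites per Mb. It lay apart for the shared distal peaks too, at 2.23 per Mb against 0.610 to 1.01 on chromosomes 7, 12 and 14. The median background of all WT As3+ peaks ranged from 1.16 on chromosomes 4 and X to 1.62 on chromosome 20. DNA copy number of these cells was not used here, and its part in the differences between chromosomes was not tested.

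**Figure D5:**
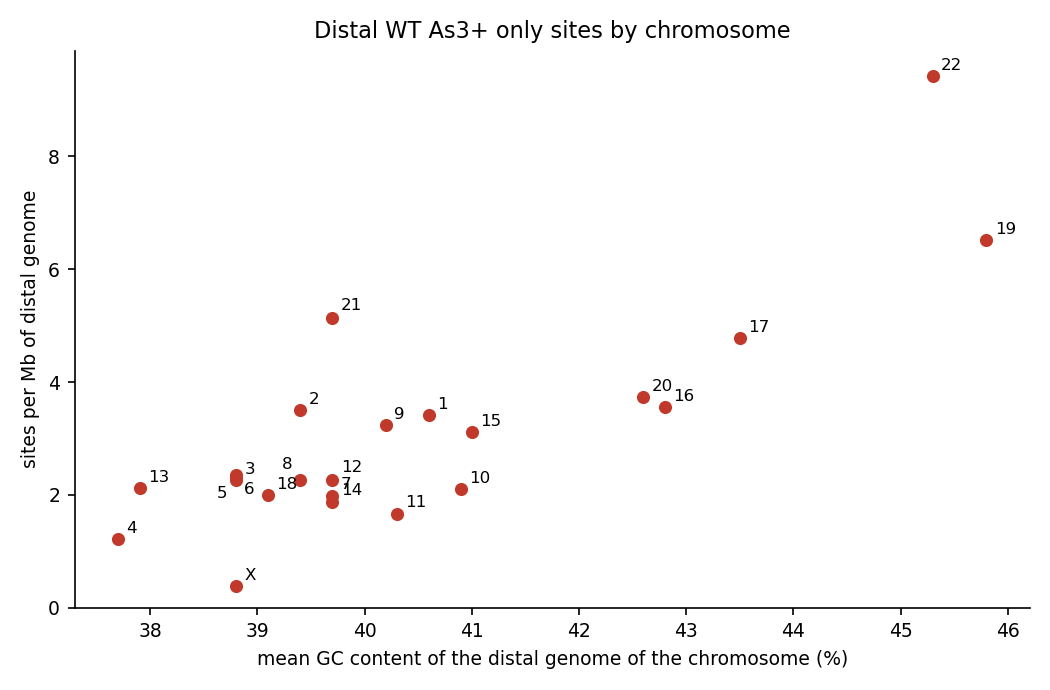
Distal sites found only in WT As3+ per Mb of distal genome (y axis) against the mean GC content of that genome (x axis, %), with 1 point per chromosome. Chromosomes 22 and 19 are highest, at 9.42 and 6.51 per Mb, and the X is lowest at 0.389.

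The sites were partly clustered. The nearest other site was at a median of 81143 bp, and 20.6% (19.5% to 21.7%) had another within 10 kb. Any other WT As3+ peak was within 10 kb of 32.6% of the sites, against 60.7% of the shared distal peaks. Of 3384 consecutive stretches of 200 kb with a site, 2378 had 1 site and 97 had 5 or more. The densest stretch, chr2:240200001-240400000, had 14 sites with folds of 3.6 to 6.49, and their summits spanned no protein-coding gene. It also had 9 distal WT As3+ peaks shared with another list and 43 Nrf2 KO control peaks. The next, chr5:1000001-1200000, had 12 sites around NKD2, an antagonist of WNT signalling, and SLC12A7, a potassium chloride cotransporter, with folds of 3.54 to 6.62, together with 76 Nrf2 KO control peaks. Stretches with 8 sites came next, and the first in order lay at PRDM16, ARHGEF16 and MEGF6 on chromosome 1 (chr1:3400001-3600000), where the Nrf2 KO control list had 110 peaks. The median GC content of the sites was 63.0% to 63.2% in these 3 stretches. All 3 had more Nrf2 KO control peaks than sites, as did the whole lists, with 76521 Nrf2 KO control peaks and 5132 sites. That these peaks did not overlap the sites was fixed by the rule.

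Protein-coding genes with at least 1 site in the body numbered 1769 of 19970, or 8.86%, and 1280 of them had exactly 1. Host genes were long, with a median of 116316 bp against 27476 bp for all protein-coding genes. The share of genes with a site rose from 0.407% under 20 kb to 6.96% at 20 to 50 kb, 13.4% at 50 to 100 kb, 22.7% at 100 to 200 kb and 32.7% over 200 kb. A WT As3+ peak within 2 kb of the TSS was found for 57.3% of the host genes (54.9% to 59.6%) and 50.6% of all protein-coding genes, and a Nrf2 KO control peak there for 72.2% (70.0% to 74.3%) and 65.4%. In genes over 200 kb the WT As3+ values were 48.7% and 49.8%, and at 100 to 200 kb 60.9% and 56.5%. A WT control promoter peak was present at 13 host genes (0.735%), near the 0.726% of all protein-coding genes. A Nrf2 KO As3+ promoter peak was present at 3 (0.170%), near the 0.195% of all protein-coding genes.

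The gene with most sites was CAMTA1, a calmodulin-binding transcription activator of 984 kb, which held 12 sites with folds of 3.83 to 5.20. KCNQ1, a voltage-gated potassium channel, and RBFOX3, the neuronal splicing factor also called NeuN, held 11 each. KAZN, which encodes the junction protein kazrin, PRDM16, a zinc finger chromatin regulator, SH3RF3, a ubiquitin ligase, and TNS3, the focal adhesion protein tensin 3, held 9 each, and MGLL held 8. Relative to length, TNS3 had 2.93 sites per 100 kb, KCNQ1 2.72 and PRDM16 2.44, while KAZN, with 1225 kb, had 0.735. The strongest of these sites were in MGLL (fold 8.16), TNS3 (fold 7.64) and SH3RF3 (fold 7.48), and in CAMTA1, KCNQ1, RBFOX3, KAZN and PRDM16 no site exceeded a fold of 5.94. TNS3 and PRDM16 had 0 distal peaks shared with Nrf2 KO control, against 8 in KCNQ1 and 7 in RBFOX3. The promoters of CAMTA1 and SH3RF3 had a WT As3+ peak, and those of the other 6 genes did not. A Nrf2 KO control peak was listed at the promoters of all these genes except RBFOX3.

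Gene lists of pathways that concern KLF4, Nrf2 and As3+ transformation were then read against the 8.86% of all protein-coding genes that held a site and the 16.2% that were the nearest protein-coding gene of one. These lists were written with earlier results of these data known. For each gene named, the site given is the strongest by −log10 p of those in its body or with its TSS as the nearest protein-coding one, and it need not be the closest. Of 26 actin and focal adhesion genes, 13 (50%) held a site and 16 (61.5%) were the nearest protein-coding gene of one, and the median length of the list was 117 kb against 27.5 kb for all genes. In this list PARVA, described above, had a fold of 8.76. TNS3 had 1 in intron 16 with a fold of 7.64. MYH9, the heavy chain of non-muscle myosin II, held 3 sites, the highest in intron 1 with a fold of 6.04 and 19 fragments.

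Among 24 receptor tyrosine kinase and EGF ligand genes, 5 (20.8%) held a site and 6 (25%) were nearest to one, with a median gene length of 104 kb. The highest was in intron 3 of EPHA2, an ephrin receptor, at chr1:16143663-16144168, with a fold of 6.03 and 17 fragments, 855 bp from a Nrf2 KO control peak and 1017 bp from a WT control peak. IGF1R, the receptor of insulin-like growth factor 1, had a site in intron 2 with a fold of 5.60 and a KLF word. The strongest of 3 sites of NRG1, an ERBB ligand, had a fold of 5.65, and the 1 site of FGFR1 a fold of 4.89. Of 15 Hedgehog pathway genes, 3 (20%) held a site and 5 (33.3%) were nearest to one, with a median gene length of 74.1 kb. The transcription factor GLI2 held 5 and was the host or nearest gene of 9, the highest in intron 1 with a fold of 6.15, at chr2:120780833-120781351. GLI3 had a site with a fold of 5.38, 327 bp from a Nrf2 KO control peak, the co-receptor BOC had 1 with a fold of 4.64, and the stronger of 2 sites of the ligand gene SHH, 22892 bp from its TSS, had a fold of 5.08.

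Of 25 Nrf2 antioxidant target genes, 5 (20%) held a site and 4 (16%) were the nearest protein-coding gene of one, close to the 16.2% of all genes, and their median length was 30.3 kb. TKT and TALDO1 encode enzymes of the pentose phosphate pathway. TKT had a site in intron 4 with a fold of 4.90 and 19 fragments, and TALDO1 1 in intron 4 with a fold of 5.47, 11 fragments and an AP-1 word. The TKT site lay 90 bp and the TALDO1 site 771 bp from a Nrf2 KO control peak. ABCC1, an exporter of glutathione conjugates, had a site in intron 1 with a fold of 5.05 and an AP-1 word, 16372 bp from the nearest Nrf2 KO control peak. Of these 3 sites, 2 had an AP-1 word and none had the ARE word.

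Of 22 genes of epithelial to mesenchymal transition, 3 (13.6%) held a site and 14 (63.6%) were the nearest protein-coding gene of one. Their median length was 81.6 kb. SMAD3, a TGF-β effector, had a site in intron 1 at chr15:67120966-67121602 with a fold of 5.44, 17 fragments and an AP-1 word. The strongest of 4 sites of SMAD7, the inhibitor of this pathway, lay 40060 bp away with a fold of 5.14. The stronger of 2 sites of CDH2 and the 1 site of TGFB2 were 894511 bp and 394229 bp away, with folds of 5.69 and 5.12, so a nearest gene can be remote. Of 28 integrin, laminin and collagen genes, 2 (7.14%) held a site and 8 (28.6%) were nearest to one, with a median gene length of 88.0 kb. Among the nearest genes was ITGA6, the laminin-binding integrin α6, 20330 bp from a site with a fold of 7.64, 19 fragments and a KLF word. The strongest of 5 sites of COL5A1 had a fold of 4.57, and ITGB4 and ITGB6 had 1 each with folds of 4.48 and 4.76.

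Of 21 KLF and SP genes, 2 (9.52%) held a site and 9 (42.9%) were nearest to one, with a median gene length of 22.6 kb. KLF9 and KLF6 had 3 sites each, the strongest with folds of 6.15 and 6.30 at 186940 bp and 101058 bp, that of KLF6 with a GC box. SP1 had 1 at 14189 bp with a fold of 5.13 and KLF10 1 at 74149 bp with a fold of 4.49. Of 18 AP-1 and related genes, 1 (5.56%) held a site and 8 (44.4%) were nearest to one, with a median gene length of 12.9 kb. A site in ERCC1 lay 11846 bp from FOSB and had a fold of 6.57, 22 fragments and an AP-1 word. The 1 site of BATF had a fold of 5.69, and ATF3 had 1 in its body with a fold of 4.69. Of 16 stem cell factor genes, 1 (6.25%) held a site and 5 (31.2%) were nearest to one, with a median gene length of 19.6 kb. Intron 1 of STAT3 had a site with a fold of 4.64, and the strongest of 5 sites of SOX9 and the stronger of 2 of TP63 had folds of 5.47 and 5.10 at 145629 bp and 212366 bp. The strongest of 4 sites of MYC, in intron 2 of the non-coding RNA PVT1 and 128660 bp away, had a fold of 5.15, 11 fragments and a KLF word.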

How the data were processed

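KLF4 ChIP was done on sonicated chromatin with an anti-KLF4 antibody, and 75-nt reads were aligned by the authors to GRCh38/hg38 with BWA, with base calling by bcl2fastq 2.17 per the submitters' processing notes. The peak caller is not given in the sources used here. The authors deposited 1 peak list per library with a fold (a ratio over local background), a −log10 p and a −log10 q per peak. Density maps were downsampled, and whether peaks were called on downsampled tags is not given. Of 14 libraries, the 10 for H3K4me1, H3K27Ac and input were not analysed here.

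The fragments over a summit (n) and its background (λ) were solved from the listed fold, taken as (n + 1)/(λ + 1), and the listed p, taken as a Poisson upper tail, with a misfit of at most 0.000405 in −log10 p in all 4 lists. Genes came from GENCODE release 44. A total of 14 words were searched on both strands in 200-bp windows. Shares carry Clopper-Pearson 95% intervals, and there is no test because each condition has 1 library. The steps were tested on simulated data.

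The sites and gene lists were chosen with earlier results of these data known. Named were the 12 sites with the largest −log10 p, the 6 strongest with each of the AP-1 and KLF words, those nearest each threshold, the 8 genes with most sites, 3 stretches of 200 kb, and up to 4 genes per list. Some of these sites and 1 sequence are not reported here. The alternatives were other TSS sets, distances, overlaps, thresholds and windows. The tools were pandas 2.3.3, numpy 2.4.6 and pysam 0.24.0, with scipy 1.17.1 for intervals and matplotlib 3.10.9 for plots, under Python 3.11.15, and samtools 1.23.1.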

Additional observations from a re-analysis of the deposited data

Results flagged for a closer look

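The rule left out WT As3+ peaks on unplaced and unlocalised contigs. There were 86 of them on 25 contigs, with a fold of up to 6.39. Outside chromosomes 1 to 22 and X the whole lists held 90 peaks in WT As3+, 9 in WT control, 247 in Nrf2 KO control and 10 in Nrf2 KO As3+, and since the lists differ in length these counts are a description. The contig peaks are in data that the comparisons did not use and have no gene annotation here.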

How the results depend on the processing

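The number of sites depended on the thresholds. It was 546 with a −log10 q of at least 5 and 1125 at more than 50 kb from a TSS, and between 3740 and 7224 under the other alternatives. At this −log10 q, the unshared share of distal peaks was 36.7%, the median fold 6.08, the KLF share 18.5%, the AP-1 share 13% and the intron share 65.4%. With a threshold of 2, the unshared share was 66.8% and the median fold 4.55. At more than 50 kb, the unshared share was 77.4%, the KLF share 8.71% and the intron share 59.2%, and at more than 5 kb the unshared share was 66.6%. The unshared share was 73.2% with the TSS of every transcript, where the intron share was 48.7%, 65.0% with protein-coding TSS and 66.9% with exon summits kept, where the intron share was 56.3%. It was 60.1% with the other lists widened by 500 bp and 77.1% when the overlap had to cover at least 50% of the interval, where the median fold was 4.53. Windows of 100 bp and 400 bp gave KLF shares of 5.98% and 17.1% and AP-1 shares of 3.20% and 11.3%.

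Added after seeing the data, leaving out the Nrf2 KO control list gave an unshared share of 96.5% and a median fold of 4.55, and leaving out the WT control list gave 70.4%. With the Nrf2 KO control list cut to its 29866 strongest peaks the share was 80.6%. The cause of these shifts was not tested. Repeat content was not computed because the genome file marks no repeats. No paired analysis was possible because each condition has 1 library. Depth limits all of these results, at a median of 8 fragments per site.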
